A study of Mus musculus with 5 samples.

Results

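The genes described here are 41 interferon-stimulated genes of the mouse, chosen by name as a module, and all 41 were found among the 23284 genes of the deposited expression table. Their levels were compared between primary melanomas grown from B16F1 cells and melanomas grown from B16F1 cells that overexpress the chemokine CXCL5. B16F1 is a mouse melanoma cell line of C57BL/6 origin. Tumors of both groups grew in skin of the flank, in untreated C57BL/6J mice, and were snap frozen at a volume between 250 and 350 mm³. The B16F1 group has 3 libraries, and the group labelled B16F1-CXCL5 has 2. Mouse age and sex, the promoter of the CXCL5 construct and whether the overexpressing cells are 1 clone are not given in the labels, so CXCL5 and a clonal difference cannot be told apart. Host cells are intact in these mice, and whole tumors were sequenced, so each value mixes melanoma cells with host cells. Fewer cells of a type and less RNA per cell cannot be told apart in such samples.

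Interferons are secreted proteins that cells release on sensing foreign or misplaced nucleic acid. Interferon alpha and beta bind the receptor IFNAR and activate a complex that holds STAT2 and IRF9 and binds the interferon-stimulated response element in promoters. Interferon gamma, made mainly by T cells and natural killer cells, acts through a receptor of its own and on gamma-activated sites. The induced genes encode antiviral proteins, nucleic acid sensors, large GTPases and parts of the signalling chain itself. In tumors they are widely used as a readout of interferon exposure of melanoma and host cells.

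The promoter sequence bound by these factors could be shown for some of the members. RefSeq promoters of GRCm38.p6 were matched by symbol for 31 of the 41 genes, and 5 of these had more than 1 start. The 250 bases before each start were searched on both strands for the core of the response element, which is GAAA, any 2 bases and GAAA again, and for TTCNNNGAA, the gamma-activated site. The first motif was present in 15 of 31 members, or 48.4%, against 3.46% of all 27025 genes with a promoter. The second was present in 10 of 31 members, or 32.3%, against 8.13% of all genes. Both motifs were present in 6 members, neither in 12, and their matches overlapped in Bst2 alone. A match describes letters in this window and does not show that a factor binds there.

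The promoters of the 6 most abundant members with a match to the response element core are printed because they hold the letters that the interferon-activated factors are known to bind. Each runs 5′ to 3′ on the strand of its gene, and capitals mark matches on either strand. Repeats of the match overlap one another in Bst2, Isg15, Irgm1 and Oas1a, so several matches form 1 capital run. Those of Rsad2 and Stat2 lie on the opposite strand, so the capitals show the reverse complement. The Irgm1 sequence is limited to 30 bases because its window overlaps an annotated exon.
Bst2, chr8:71537473-71537622, minus strand: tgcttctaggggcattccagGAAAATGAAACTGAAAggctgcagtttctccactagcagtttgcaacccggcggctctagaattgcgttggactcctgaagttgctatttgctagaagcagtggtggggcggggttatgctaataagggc
Isg15, chr4:156200819-156200968, minus strand: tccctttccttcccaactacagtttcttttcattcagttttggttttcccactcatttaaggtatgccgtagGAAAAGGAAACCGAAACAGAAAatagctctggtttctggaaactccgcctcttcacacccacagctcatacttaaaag
Irgm1, chr11:48871428-48871457, minus strand: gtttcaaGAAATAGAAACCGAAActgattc
Rsad2, chr12:26456453-26456602, minus strand: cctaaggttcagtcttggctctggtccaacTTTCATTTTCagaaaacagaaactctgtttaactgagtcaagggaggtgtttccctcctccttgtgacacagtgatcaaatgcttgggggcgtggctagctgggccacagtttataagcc
Oas1a, chr5:120907526-120907675, minus strand: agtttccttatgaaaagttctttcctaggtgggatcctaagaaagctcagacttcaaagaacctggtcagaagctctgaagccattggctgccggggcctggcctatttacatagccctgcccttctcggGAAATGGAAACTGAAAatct
Stat2, chr10:128270248-128270397, plus strand: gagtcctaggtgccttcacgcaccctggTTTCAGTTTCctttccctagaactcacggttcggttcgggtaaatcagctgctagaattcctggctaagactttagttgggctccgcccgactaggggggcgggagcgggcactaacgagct
Isg15 held 3 overlapping matches, which began 78 to 66 bases before the gene's start. The match of Oas1a nearest to the start began 14 bases before it, and the single match of Stat2 began 222 bases before it.

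Per library, 17111 to 17513 genes had an FPKM above 0, and the steps of the low values implied 26900000 to 28700000 fragments, so depth was similar in both groups. FPKM is the number of fragments scaled to transcript length and library size, so levels of different genes can be set side by side. Cxcl5 checked the labels, with 1.006 to 3.62 FPKM in B16F1 tumors and 83.7 and 85.4 FPKM in B16F1-CXCL5 tumors. Among markers of other cell types, summed neutrophil markers were 23.6 to 62.2 FPKM in B16F1 and 762 and 833 FPKM in B16F1-CXCL5 libraries, with 5 of 11 tested markers passing. Melanocyte lineage markers were present in both groups, at summed levels of 9116 to 12398 and of 9733 to 10685 FPKM. B16F1 library 3 stood apart in keratinocyte markers, at a summed 1055 FPKM against 388 to 586 FPKM in the other libraries.

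Every interferon-stimulated gene was detected in every library, and the levels spanned a wide range. The mean over all 5 libraries was at least 10 FPKM for 10 members, between 1 and 10 FPKM for 27, and below 1 FPKM for 4. Bst2, encoding tetherin, which holds budding virus at the cell surface, was by far the most abundant, with a mean of 138 FPKM. Isg15, a ubiquitin-like modifier, followed at 22.5 FPKM, then Ifi35 at 17.3 FPKM and Irgm1 at 17.2 FPKM. The 3 members that did not reach 1 FPKM in at least 2 libraries and so were not tested were Gbp5, Ifi44 and Tgtp1. Gbp5 had 0.345 to 0.592 FPKM, Ifi44 0.285 to 0.775 FPKM and Tgtp1 0.0556 to 0.117 FPKM, and the groups overlapped for all of them. The value of Tgtp1 is uncertain because Tgtp2 is a near-identical copy, and the same holds for Ifit3 with Ifit3b and for Oas1a with its neighbouring paralogs. In all, 17 members overlap another annotated gene, among them Igtp and Irgm2, which overlap each other, so their split is uncertain too.

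**Figure D1:**
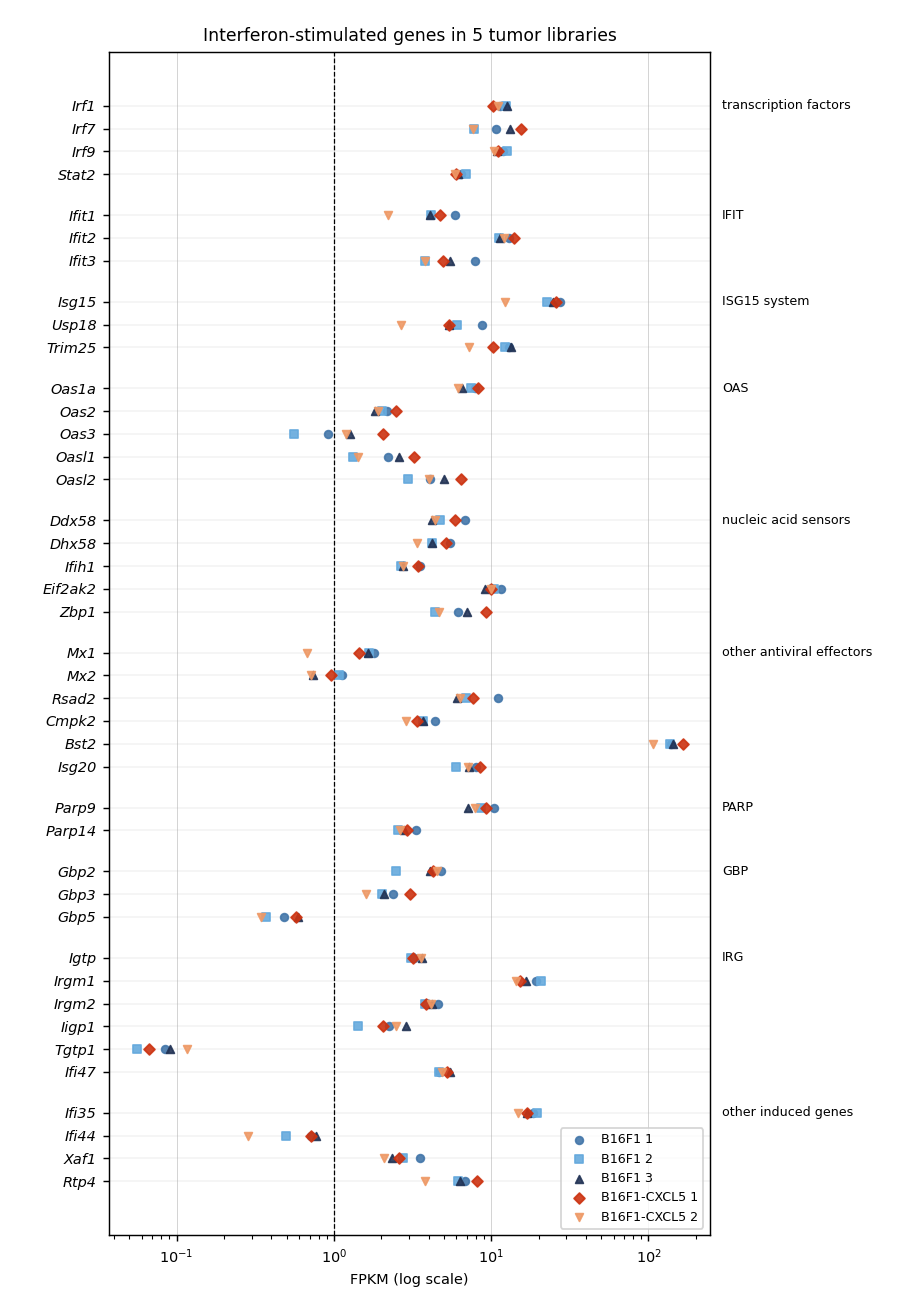
FPKM of the 41 interferon-stimulated genes on a log scale, 1 point per library, arranged by role; the dashed line marks 1 FPKM. For Irf7, Oas1a, Bst2, Gbp3 and Rtp4 the orange and red points of the 2 B16F1-CXCL5 libraries enclose the blue points of the 3 B16F1 libraries. How often this occurs over all genes was not counted.

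No interferon-stimulated gene passed the test between the groups. Of 12533 genes tested with limma on log2(FPKM + 1), 17 (0.136%) had a Benjamini-Hochberg adjusted p under 0.05, and 0 of the 38 tested members were among them. Unadjusted, 2 members, Trim25 and Irgm1, had a p under 0.05, which is 5.26% of members against 8.97% of all tested genes. The smallest limma adjusted p of a member was 0.440. Log2 fold changes (B16F1-CXCL5 less B16F1) lay between -0.65 for Usp18 and 0.45 for Oas3. Their median was -0.05, against -0.01 over all tested genes, and 24 of 38 (63.2%) were below 0, against 53.4% of all tested genes. Leaving out B16F1-CXCL5 library 1 or 2 gave a median of -0.21 or 0.04, leaving out B16F1 library 1 or 3 gave 0.0053 or -0.13, and leaving out B16F1 library 2 gave -0.084. In 33 of 38 members (86.8%) the largest difference within a group exceeded the difference between the group means, against 84.2% of all tested genes.

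The size of a difference that these libraries leave room for is bounded by the 95% intervals of limma, unadjusted for the number of genes. For 34 of 38 members the interval lay within -1 to 1 on the log2(FPKM + 1) scale. The exceptions were Usp18, Isg15 and Ifit1, whose intervals reached -1.36, -1.16 and -1.08, and Oas3, whose interval reached 1.03. This scale understates fold changes of low genes, so for low members the interval does not bound the FPKM to a 2-fold difference. Mx1, with a mean of 1.71 FPKM in B16F1 and an interval down to -0.89, is such a member. The median standard error was 0.17 for the members and 0.11 for all tested genes, so members were measured with more spread than the median gene. With 3 and 2 libraries, an exact two-sided permutation test of a single gene cannot reach a p below 0.1.

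**Figure D2:**
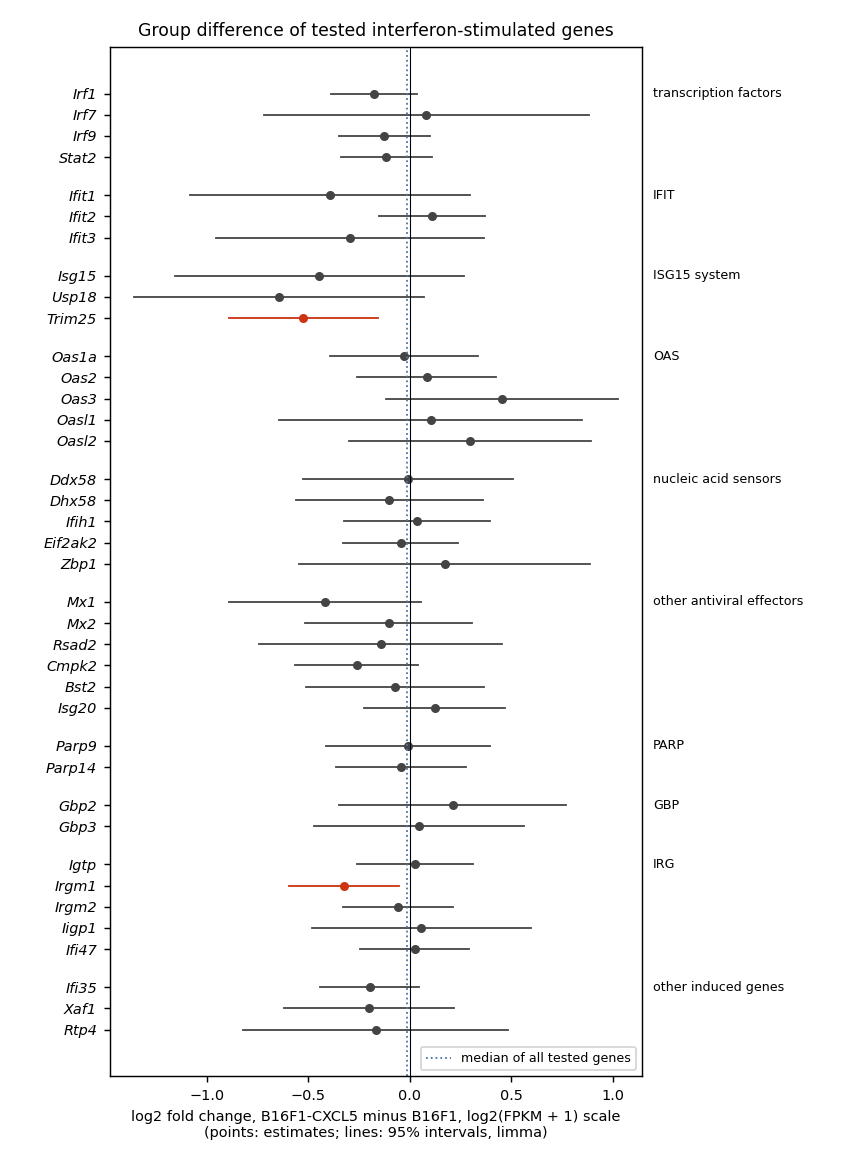
Log2 fold change of the 38 tested members, on the log2(FPKM + 1) scale and positive where B16F1-CXCL5 was higher, as points with 95% limma intervals; red marks an unadjusted p under 0.05 and the dotted line the median of all tested genes. Trim25 at -0.52 and Irgm1 at -0.32 are the members in red, and neither passed after adjustment.

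Both B16F1-CXCL5 libraries lay below all B16F1 libraries in 7 of 38 members (18.4%), against 15.6% of all tested genes. In 0 of 38 members did both lie above, against 10.8% of all tested genes. The 7 were Irf1, Stat2, Trim25, Mx1, Cmpk2, Irgm1 and Ifi35. The share for the lower direction is near the background.

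Among the transcription factors of the module, the group means were close and Irf7 had the widest spread within the groups. Irf1, which is induced strongly by interferon gamma and drives a second wave of genes, had 11.4, 12.4 and 12.5 FPKM in B16F1 tumors and 10.2 and 11.0 FPKM in B16F1-CXCL5 tumors. The groups did not overlap, by a small margin. The mean was 12.1 ± 0.605 FPKM (SD, n = 3) in B16F1 and 10.6 ± 0.600 FPKM (SD, n = 2) in B16F1-CXCL5 tumors. The difference did not pass (log2 fold change -0.18, SE 0.09, limma adjusted p = 0.639). Stat2 and Irf9, which form the factor that binds the response element, had means of 6.52 and 5.93 FPKM and of 11.8 and 10.7 FPKM. Neither passed (limma adjusted p = 0.770 and 0.758). Irf7, which amplifies the production of interferon alpha and is itself induced, had 10.8, 7.74 and 13.1 FPKM in B16F1 and 15.6 and 7.65 FPKM in B16F1-CXCL5 libraries. The highest and the lowest value of Irf7 thus both came from B16F1-CXCL5 tumors.

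The ISG15 system held the members with the largest lower values. In this system ISG15 is joined to other proteins, USP18 removes it and also blocks IFNAR signalling, and TRIM25 is a ubiquitin ligase that activates the sensor RIG-I. Trim25 had 13.04, 12.2 and 13.4 FPKM in B16F1 tumors and 10.3 and 7.22 FPKM in B16F1-CXCL5 tumors. Both B16F1-CXCL5 values were below every B16F1 value, though they were also far from each other. The means were 12.9 ± 0.599 and 8.77 ± 2.19 FPKM, a ratio of 0.681. The log2 fold change of -0.52 (SE 0.15) had an unadjusted p of 0.0133 and did not pass (limma adjusted p = 0.440). Across all alternative settings its limma adjusted p stayed between 0.357 and 0.999.

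Usp18 and Isg15 both had their lowest value in B16F1-CXCL5 library 2. Usp18 had 8.69, 6.02 and 5.39 FPKM in B16F1 tumors and 5.40 and 2.66 FPKM in B16F1-CXCL5 tumors, so the groups overlapped narrowly. Isg15 had 27.2, 22.6 and 24.6 FPKM in B16F1 tumors and 25.8 and 12.3 FPKM in B16F1-CXCL5 tumors. Library 1 of B16F1-CXCL5 lay inside the B16F1 range for both genes, at its lower end for Usp18. Neither gene passed, Usp18 at a log2 fold change of -0.65 (SE 0.29, limma adjusted p = 0.607) and Isg15 at -0.45 (SE 0.29, limma adjusted p = 0.727). Without B16F1-CXCL5 library 2 the log2 fold change was -0.24 for Usp18 and 0.06 for Isg15, and without B16F1-CXCL5 library 1 it was -1.05 and -0.95.

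The IFIT proteins bind viral RNA and hinder its translation. Ifit2, the most abundant of the 3, had 13.03, 11.3 and 11.4 FPKM in B16F1 tumors and 13.9 and 12.01 FPKM in B16F1-CXCL5 tumors. The groups overlapped, and the log2 fold change was 0.11 (SE 0.11, limma adjusted p = 0.827). Ifit1 ranged from 4.10 to 5.90 FPKM in B16F1 tumors, with 4.76 and 2.22 FPKM in B16F1-CXCL5 tumors. Ifit3 ranged from 3.81 to 7.89 FPKM in B16F1 tumors, with 4.93 and 3.77 FPKM in the others. Both Ifit1 and Ifit3 had their highest value in B16F1 library 1 and their lowest in B16F1-CXCL5 library 2.

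Oligoadenylate synthetases make the signal that switches on RNase L. Among these and the OAS-like members, 4 of 5 log2 fold changes were above 0, against 5841 of 12533 tested genes. For the GBP members it was 2 of 2. Oas3 had 0.923, 0.556 and 1.26 FPKM in B16F1 and 2.05 and 1.20 FPKM in B16F1-CXCL5 libraries. Its groups overlapped at the B16F1 library 3 value, and it lies close to the filter. The log2 fold change was 0.45 (SE 0.23, limma adjusted p = 0.651). Oasl2 had 4.10, 2.97 and 5.03 FPKM in B16F1 and 6.43 and 4.01 FPKM in B16F1-CXCL5 libraries (limma adjusted p = 0.784). Oasl1, an OAS-like protein that restrains translation of Irf7, had 2.198, 1.32 and 2.60 FPKM and then 3.25 and 1.43 FPKM (limma adjusted p = 0.960). For Oas3, Oasl1 and Oasl2 the highest value was that of B16F1-CXCL5 library 1 and the lowest that of B16F1 library 2. Oas1a, the most abundant synthetase, had 7.94, 7.48 and 6.503 FPKM and then 8.27 and 6.11 FPKM, and was nearly equal between the groups (log2 fold change -0.03, SE 0.15). Oas2 had 2.17, 2.01 and 1.81 FPKM and then 2.48 and 1.89 FPKM. The B16F1-CXCL5 libraries enclosed all B16F1 values of Oas1a but only 2 of the 3 values of Oas2.

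The sensors of foreign nucleic acid overlapped between the groups in all 5 cases. Eif2ak2, the kinase PKR, which stops translation on binding double-stranded RNA, had 11.6, 10.4 and 9.08 FPKM in B16F1 tumors and 9.97 and 9.94 FPKM in B16F1-CXCL5 tumors. Its log2 fold change was -0.05 (SE 0.11, limma adjusted p = 0.951). Zbp1, a sensor of Z-form nucleic acid linked to necroptosis, had 6.16, 4.40 and 7.03 FPKM and then 9.23 and 4.69 FPKM (limma adjusted p = 0.918). The B16F1-CXCL5 tumors thus differed 1.97-fold from each other in Zbp1 and hardly at all in Eif2ak2. Ddx58, which encodes RIG-I, Ifih1, which encodes MDA5, and Dhx58, which encodes LGP2, had group means of 5.22 and 5.14 FPKM, of 2.996 and 3.09 FPKM, and of 4.62 and 4.29 FPKM.

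Among the other antiviral effectors, Bst2 showed the spread most plainly because of its high level. It had 139, 137 and 143 FPKM in B16F1 tumors and 165 and 107 FPKM in B16F1-CXCL5 tumors. The group means were 139.96 ± 3.07 and 136 ± 40.5 FPKM, close together, with the B16F1-CXCL5 tumors on either side of all B16F1 tumors. The log2 fold change was -0.07 (SE 0.18, limma adjusted p = 0.949). Mx1 encodes a dynamin-like GTPase, and the allele of C57BL/6 mice gives no functional protein. It had 1.81, 1.68 and 1.65 FPKM and then 1.45 and 0.679 FPKM, without overlap (log2 fold change -0.42, SE 0.19, limma adjusted p = 0.616). Cmpk2, a mitochondrial nucleotide kinase, had 4.40, 3.70 and 3.70 FPKM and then 3.38 and 2.86 FPKM, also without overlap (log2 fold change -0.26, SE 0.12, limma adjusted p = 0.623). Its neighbour Rsad2, encoding viperin, which makes a chain-terminating nucleotide, overlapped, with 6.03 to 11.0 FPKM and then 7.62 and 6.29 FPKM. Isg20, an RNA exonuclease, had 8.04, 5.99 and 7.26 FPKM and then 8.43 and 7.14 FPKM (limma adjusted p = 0.864). Mx2, annotated as a polymorphic pseudogene in this strain, had group means of 0.978 and 0.838 FPKM.

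The GTPases that interferon gamma induces most strongly, the guanylate-binding proteins (GBP) and immunity-related GTPases (IRG), disrupt the vacuoles of intracellular pathogens. Irgm1, the most abundant and a regulator of the other IRG proteins, had 19.2, 20.7 and 16.6 FPKM in B16F1 tumors and 15.3 and 14.3 FPKM in B16F1-CXCL5 tumors. All B16F1 values were above both B16F1-CXCL5 values. The means were 18.8 ± 2.06 and 14.8 ± 0.686 FPKM. The log2 fold change of -0.32 (SE 0.11) had an unadjusted p of 0.0270 and did not pass (limma adjusted p = 0.485). Igtp, Irgm2 and Ifi47 had nearly the same level in all 5 tumors, with a highest value 1.18, 1.20 and 1.18 times the lowest. Iigp1 had group means of 2.18 and 2.25 FPKM. Gbp2 had 4.77, 2.47 and 4.05 FPKM and then 4.25 and 4.55 FPKM, with B16F1 library 2 the lowest and a limma adjusted p of 0.851. Gbp3 had group means of 2.16 and 2.34 FPKM.

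The remaining members also lacked a call. Ifi35, which binds other induced proteins in the cytosol, had 18.3, 19.4 and 17.0 FPKM in B16F1 and 16.9 and 14.7 FPKM in B16F1-CXCL5 libraries. The groups just failed to overlap (log2 fold change -0.20, SE 0.10, limma adjusted p = 0.647). Parp9 and Parp14, of the poly(ADP-ribose) polymerase family, had group means of 8.70 and 8.57 FPKM and of 2.90 and 2.78 FPKM. In single libraries Parp9 had 10.4, 8.55 and 7.11 FPKM and then 9.23 and 7.90 FPKM, a full overlap. Xaf1, a proapoptotic protein, and Rtp4, a chaperone of receptors, had group means of 2.87 and 2.35 FPKM and of 6.46 and 5.97 FPKM.

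The members also had an order between tumors of the same group. Of the 38 tested members, 33 (86.8%) were higher in B16F1-CXCL5 library 1 than in library 2, against 54.6% of all tested genes. The median difference was 0.23 on the log2 scale, against 0.02 over all tested genes. In 13 of 38 members, among them Isg15, Usp18, Ifit1, Irf7, Zbp1 and Rtp4, library 1 was at least 1.5 times library 2, as in 3.12% of all tested genes. B16F1 libraries 1 and 2 differed in the same direction by number, with 33 of 38 members higher in library 1, against 50.7% of all tested genes. The median difference was 0.24, against 0.00 over all tested genes. Of the other B16F1 pairs, 27 of 38 members (71.1%) were higher in library 1 than in library 3, against 55.6% of all tested genes. In library 2 than in library 3 it was 17 of 38 (44.7%), against 54.7%. The median differences of the members were 0.14 and -0.02, against 0.03 and 0.02 over all tested genes. Genes of 1 library share that library, so these counts describe libraries and give no test.

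B16F1-CXCL5 library 2 had the lowest value of 19 of 38 members (50%) and the highest of 0, against 26.9% and 14.98% of all tested genes. B16F1 library 1 had the highest value of 17 members (44.7%) and the lowest of 0, against 22.5% and 14.2%. The high and the low end of the module were thus held by tumors of different groups, while B16F1-CXCL5 library 1 had the highest value of 12 members and B16F1 library 2 the lowest of 13.

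**Figure D3:**
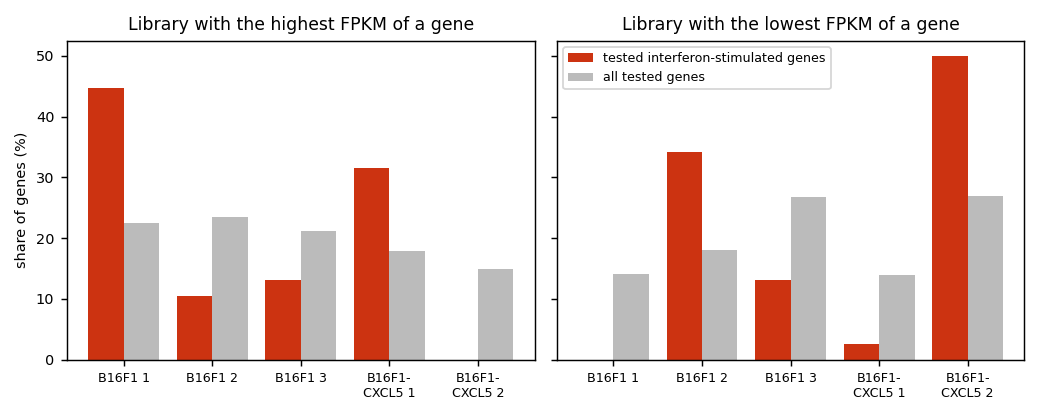
Share of genes in percent whose highest (left) or lowest (right) FPKM among 5 libraries fell in each library, for the 38 tested interferon-stimulated genes (red) and all 12533 tested genes (grey). B16F1 library 1 was never the lowest and B16F1-CXCL5 library 2 never the highest for a tested member.

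The GTPases were not ordered in this way between the B16F1-CXCL5 tumors. When the GBP and IRG members were pooled, a grouping made after their values were seen, 3 of 7 were higher in library 1, with a median difference of -0.08. Of the other 31 tested members, 30 were higher in library 1, with a median difference of 0.31, and Irf1 was the exception. Gbp3 was the GTPase that did differ, with 3.07 FPKM in library 1 and 1.61 FPKM in library 2. By role, the median difference was 0.81 for the ISG15 system, 0.47 for the synthetases, 0.35 for the sensors, 0.31 for the IFIT genes, 0.23 for the other antiviral effectors, 0.16 for the PARP genes and 0.03 for the transcription factors. For the IRG genes it was -0.08, with 2 of 5 higher in library 1, and for Ifi35, Xaf1 and Rtp4 it was 0.23. The 2 tested GBP genes split, Gbp3 higher in library 1 and Gbp2 in library 2, at a median of 0.28. By this median the transcription factors were about as flat as the pooled GTPases, although 3 of 4 were higher in library 1. Irf7 was far from flat, with 15.6 FPKM in library 1 and 7.65 FPKM in library 2, a log2 difference of 0.94. Between B16F1 libraries 1 and 2 the GTPases went with the rest, with 6 of 7 higher in library 1. Members with a response element core in the promoter had a median difference between the B16F1-CXCL5 tumors of 0.31 (13 genes), and members without one 0.21 (15 genes).

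**Figure D4:**
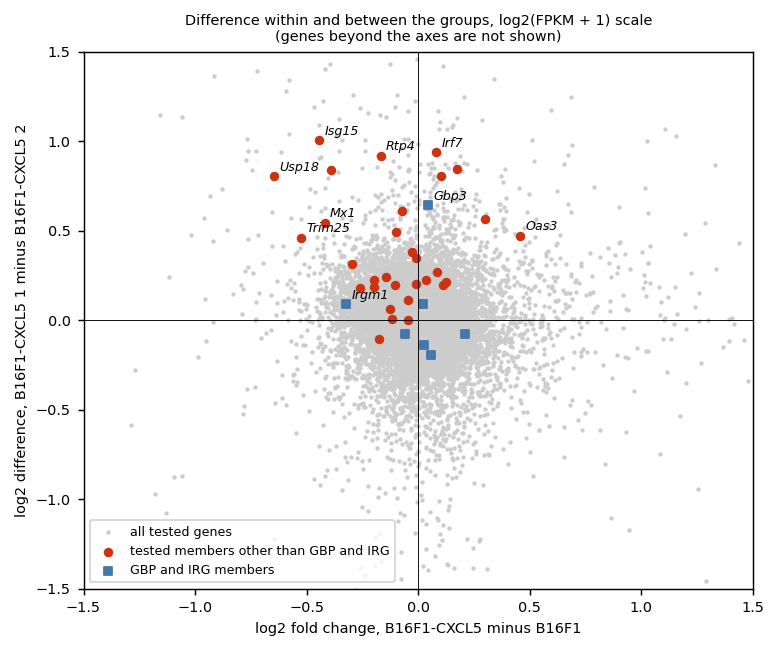
For each tested gene, the log2 fold change between the groups (x axis) against the log2 difference between the 2 B16F1-CXCL5 libraries (y axis), on the log2(FPKM + 1) scale, with the members in red and blue over all tested genes in grey. Most red points lie above 0 on the y axis and on both sides of 0 on the x axis, and the blue GBP and IRG points lie near 0 on the y axis apart from Gbp3.

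Markers of some host cells had the direction of the B16F1-CXCL5 pair, and their direction in the pairs of B16F1 tumors differed between lists. Of 11 macrophage and monocyte markers, 10 were higher in B16F1-CXCL5 library 1 than in library 2, with a median difference of 0.57, and 11 of 11 were higher in B16F1 library 1 than in library 2, with a median difference of 0.28. Between B16F1 libraries 1 and 3 these markers went the other way, with 10 of 11 higher in library 3, while 27 of 38 members were higher in library 1. C1qa had 55.0, 46.1 and 65.98 FPKM in B16F1 and 70.6 and 47.1 FPKM in B16F1-CXCL5 libraries, while the summed list, in which Apoe dominates, had 1004 to 1213 and 1183 to 1201 FPKM. Between B16F1 libraries 2 and 3, 0 of 11 macrophage markers and 17 of 38 members were higher in library 2. Most of these markers and most members thus went the same way in the B16F1-CXCL5 pair and between B16F1 libraries 1 and 2. Between B16F1 libraries 2 and 3 the members were split nearly evenly, with a median difference of -0.02.

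Of 13 markers of T and natural killer cells, 12 were higher in B16F1-CXCL5 library 1, at summed levels of 5.21 and 3.39 FPKM against 2.50 to 4.38 FPKM in B16F1, and none reached 1 FPKM in any library. In B16F1, 7 of 13 were higher in library 1 than in library 2 and 2 of 13 than in library 3. All 6 endothelial markers were higher in B16F1-CXCL5 library 1, at summed levels of 49.3 and 39.2 FPKM against 33.9 to 41.97 FPKM in B16F1, but 2 of 6 and 0 of 6 were higher in B16F1 library 1 than in libraries 2 and 3. All 5 B cell markers were higher in library 1 than in library 2 of either group, at summed levels of 0.844 to 1.92 FPKM over the 5 libraries. In B16F1, 3 of 5 were higher in library 1 than in library 3. Between B16F1 libraries 2 and 3, 2 of 5 B cell, 0 of 13 T and natural killer cell and 2 of 6 endothelial markers were higher in library 2. Of 8 melanocyte lineage markers, 0 were higher in B16F1-CXCL5 library 1 than in library 2, while 5 were higher in B16F1 library 1 than in library 2 and 8 than in library 3. Of 6 markers of plasmacytoid dendritic cells, the main makers of interferon alpha, 4 were higher in B16F1-CXCL5 library 1. In B16F1, 3 of 6 were higher in library 1 than in library 2 and 2 of 6 than in library 3. Siglech and Ccr9 were at most 0.247 and 0.111 FPKM and higher in B16F1-CXCL5 library 2. Tcf4, the most abundant of the list, had 8.35 to 10.01 FPKM. Other lists went the other way, with 3 of 12 neutrophil and 3 of 8 dendritic cell markers higher in B16F1-CXCL5 library 1 than in library 2. For fibroblast and keratinocyte markers it was 2 of 6 and 2 of 8. In B16F1, 5 of 12, 3 of 8, 5 of 6 and 5 of 8 of these 4 lists were higher in library 1 than in library 2. Than in library 3, it was 3 of 12, 3 of 8, 0 of 6 and 0 of 8. The part of these cells in the order of the tumors was not tested.

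Upstream of the module, interferon genes themselves were at the edge of detection. Of 21 interferon genes in the table, 17 were listed at 0 in all 5 libraries, and 0 entered the test. Ifnb1 was listed at 0.0683 FPKM in B16F1 library 1, at 0.0652 FPKM in B16F1-CXCL5 library 1, and at 0 in the others. Ifng was listed at 0.0714 FPKM in B16F1 library 3, at 0.0748 FPKM in B16F1-CXCL5 library 1, and at 0 in the others. Ifnk, a skin interferon, was at most 0.107 FPKM. Values this low rest on very few fragments, so no difference between the groups was detectable.

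The receptor chains and kinases were above 8 FPKM in every tumor apart from Ifnlr1, and 0 of 9 passed. Of their log2 fold changes 9 of 9 were above 0, against 5841 of 12533 tested genes, with a median of 0.17. In 3 of 9 both B16F1-CXCL5 libraries lay above all B16F1 libraries, against 10.8% of all tested genes. Ifnar1 and Ifnar2, the chains of the receptor for interferon alpha and beta, had group means of 18.9 and 19.4 FPKM and of 25.97 and 30.4 FPKM. Ifngr1 and Ifngr2, the chains of the interferon gamma receptor, had 18.6 and 20.01 FPKM and 41.4 and 47.5 FPKM. Values of Ifnar2 did not overlap, from 23.3 to 28.4 FPKM in B16F1 and 31.3 and 29.5 FPKM in B16F1-CXCL5 libraries (log2 fold change 0.22, limma adjusted p = 0.617). Il28ra, the older name of Ifnlr1, the chain specific to the interferon lambda receptor, had the smallest p of this list. It had 0.587, 0.887 and 1.03 FPKM in B16F1 and 1.45 and 1.60 FPKM in B16F1-CXCL5 libraries (log2 fold change 0.47, SE 0.16, limma adjusted p = 0.496). Its partner Il10rb, shared with interleukin 10, had 89.7 and 100.1 FPKM. Jak1, Jak2 and Tyk2, the kinases bound to these receptors, had 20.4 and 21.8 FPKM, 9.27 and 11.0 FPKM, and 9.80 and 9.82 FPKM. Jak2 did not overlap either, at 8.17 to 9.90 FPKM against 11.5 and 10.6 FPKM (limma adjusted p = 0.621).

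**Figure D5:**
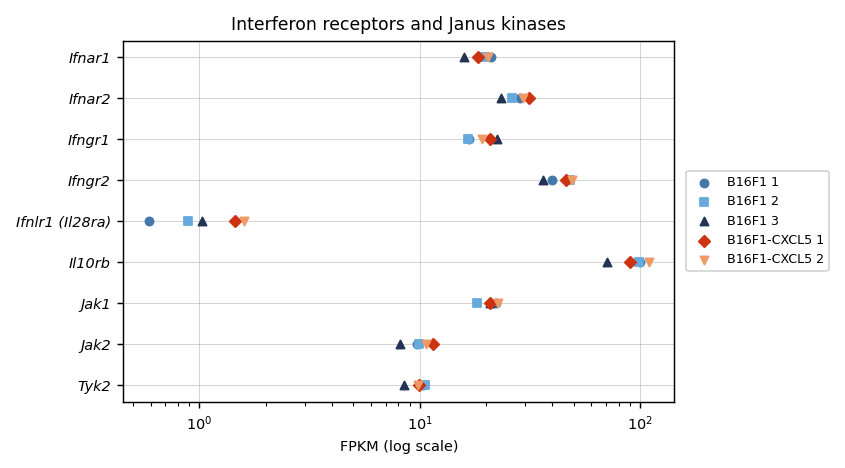
FPKM on a log scale of the interferon receptor chains and Janus kinases, 1 point per library. All but Ifnlr1 (listed as Il28ra) lie above 8 FPKM in each library, and the groups lie apart for Ifnlr1, Ifnar2 and Jak2.

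Of 13 tested genes that sense nucleic acid or relay it to interferon production, 0 passed and the median log2 fold change was -0.02. Of these 13, 10 had a log2 fold change below 0, against 53.4% of all tested genes. E330016A19Rik, the older name of Mb21d1, which encodes the DNA sensor cGAS, had 4.39, 4.57 and 4.73 FPKM in B16F1 and 3.50 and 3.77 FPKM in B16F1-CXCL5 libraries, without overlap (log2 fold change -0.26, SE 0.10, limma adjusted p = 0.512). Tmem173, which encodes STING, the adaptor that cGAS activates, had 16.5 ± 2.68 and 18.8 ± 0.210 FPKM, and Irf3, the factor at the end of that route, had 17.6 and 17.5 FPKM. Of 9 negative regulators, 0 passed and the median was 0.13. Ptpn2, a phosphatase that acts on JAK1, had the smallest p of these, with 21.1 ± 1.22 and 24.0 ± 0.172 FPKM (limma adjusted p = 0.607). Irf2, an antagonist of IRF1, had 9.24 and 10.4 FPKM. Ptpn11 and Ptpn6, the phosphatases of highest level in the list, had 37.8 and 37.2 FPKM and 22.8 and 26.4 FPKM.

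A list of 59 further interferon-induced genes in the table gave 48 tested genes, of which 0 passed with limma. Of the 48, 5 had an unadjusted limma p under 0.05, against 8.97% of all tested genes. The median log2 fold change was -0.02, with 21 above 0 and 27 below, against 53.4% of all tested genes below 0. Slfn1, a Schlafen gene of leukocytes, and Ifitm1, a membrane protein that blocks viral entry, had the smallest p of this list. Slfn1 had 2.23, 1.38 and 2.69 FPKM in B16F1 and 6.80 and 5.49 FPKM in B16F1-CXCL5 libraries (log2 fold change 1.22, SE 0.21, limma adjusted p = 0.224). Ifitm1 had 1.62, 3.78 and 5.61 FPKM in B16F1 and 12.99 and 16.2 FPKM in B16F1-CXCL5 libraries (log2 fold change 1.83, SE 0.38, limma adjusted p = 0.332). In both genes the groups were well apart, beside the rise in neutrophil markers given above, and the part of neutrophils was not tested. The related Ifitm2 and Ifitm3, the most abundant genes of the list, had 368 ± 12.9 and 397 ± 36.1 FPKM and 269.5 ± 15.1 and 299 ± 74.4 FPKM. Ifitm3 went with the contrast between the B16F1-CXCL5 tumors, at 351 FPKM in library 1 and 246 FPKM in library 2.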

How the data were processed

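Gene expression was measured in 5 libraries by RNA sequencing of poly(A) RNA from whole tumors with a strand-specific kit. RNA integrity numbers were 8.7 to 9.5, per the labels' protocols. The authors deposited 1 table of FPKM values per gene. The submitters' processing notes name Cufflinks 2.2.1, TopHat2 2.0.10, SAMtools 0.1.1.9, Bowtie 1.0.0 and FastQC 0.10.1 and the build GRCm38 (mm10). Which annotation and strand setting they used, and whether libraries were scaled to each other, is not given in the sources used here. Cufflinks divides fragments among near-identical genes by a model. Depth was estimated from the steps of low values over 3059 genes with 1 transcript in GENCODE M21, assuming fragments of 200 nt. No pair of libraries shared more than 0.00584% of values, so each counted as a sample, though this does not show that they are separate tumors.

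From these values, limma 3.58.1 in R 4.3.3 was fitted on log2(FPKM + 1) with an intensity trend to the 12533 genes with at least 1 FPKM in at least 2 libraries, with Benjamini-Hochberg adjustment over all of them and a threshold of 0.05. The fit was tested on simulated data. Fold changes on this scale understate those of low genes. The labels do not say that libraries came from separate mice, and p-values then measure only the spread among these 5 samples, which may be technical. Groups came from the sample titles. The members and lists were chosen with earlier results of these data known. Named in full were members past the threshold, the 8 of smallest p in each direction and the most abundant of each of 10 role lists; from each pathway list, the 2 of smallest p, the 2 most abundant and genes fixed by name. Alternatives were other pseudocounts, filters, priors, weights, scaling, a replicate block and leaving out each library. Of the listed symbols, 6 were not matched in the table and are not analysed here. An item that the naming rule takes is not reported here.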

Additional observations from a re-analysis of the deposited data

How the results depend on the processing

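With limma, 0 members passed in the main setting, in 8 alternatives that kept every library and without any single library (range 0 to 0), and 0 to 7 members had an unadjusted p under 0.05. The median log2 fold change of the members lay between -0.21 and 0.04 when 1 library was left out and between -0.13 and -0.04 otherwise, so it changed sign without B16F1 library 1 (0.0053) and without B16F1-CXCL5 library 2 (0.04). The SD of the module's mean log2 level between libraries of a group was 0.17. The count over all tested genes, 17, became 7 when only genes averaging 3 FPKM or more were tested, 8 at a pseudocount of 0.1, 31 with library weights, 39 with no intensity trend and 46 with the replicate block; it ranged from 2 to 34 when 1 library was left out. For these counts the cause was not tested. Over all tested genes same-numbered libraries did not deviate together (correlations of -0.028 and -0.019), and the labels give the numbers no shared origin, so the tumors were not treated as pairs. The members themselves did go by number, with 33 of 38 higher in library 1 than in library 2 in both groups. With the replicate block, which leaves B16F1 library 3 with no partner and so without weight, the median of the members was -0.13 and the smallest limma adjusted p of a member was 0.189 (Usp18).

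The direction of log2 fold changes was compared between settings for the members only, and 0 of them passed in any setting. Some members changed direction. With median ratio scaling Ddx58 was at 0.0062 and Parp9 at 0.0069, and with the replicate block Ifih1 was at -0.0046. When 1 library was left out, the log2 fold change ranged from -0.39 to 0.55 for Irf7, -0.81 to 0.028 for Ifit1, -0.95 to 0.058 for Isg15, -0.22 to 0.16 for Oas1a, -0.050 to 0.22 for Oas2, -0.30 to 0.51 for Oasl1, -0.18 to 0.17 for Ddx58, -0.35 to 0.15 for Dhx58, -0.078 to 0.15 for Ifih1 and -0.13 to 0.032 for Eif2ak2. It ranged from -0.25 to 0.59 for Zbp1, -0.30 to 0.086 for Rsad2, -0.38 to 0.23 for Bst2, -0.13 to 0.12 for Parp9, -0.11 to 0.035 for Parp14, -0.0016 to 0.37 for Gbp2, -0.28 to 0.37 for Gbp3, -0.046 to 0.094 for Igtp, -0.12 to 0.21 for Iigp1, -0.023 to 0.087 for Ifi47 and -0.63 to 0.29 for Rtp4. Where a group was left with 1 library, that library was assumed to vary like the other group. The small number of libraries, 3 and 2, limits the precision, and for members under 1 FPKM few fragments do so too.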
